A study of Mus musculus with 42 samples.

Results

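Fatty acid elongases and desaturases were followed in mouse liver RNA: the elongases Elovl1, Elovl2, Elovl3, Elovl5 and Elovl6, the front-end desaturases Fads1 and Fads2, the related Fads3, and the stearoyl-CoA desaturase Scd2. The 9 members were taken by symbol from both deposited count tables, which hold 55573 gene IDs each, and all 9 were found once and passed the filter on low counts in both tables. The livers came from male C57B6/J mice, with 6 mice in each of 7 groups. In the acute arm the groups received vehicle, CORT (corticosterone, the stress steroid that is the chief glucocorticoid in mice), ENZA (enzalutamide, an antiandrogen) or CORT+ENZA. In the chronic arm the groups received vehicle, CORT or CORT+ENZA; a chronic group on ENZA alone is not analysed here. The sources used here give no dose, route, day or age. Kits of different makers (Qiagen for acute, Macherey-Nagel for chronic samples) were used for extraction, so kit and duration cannot be told apart. Every fold change was computed within 1 arm. The study asked how glucocorticoid and androgen signalling interact in liver.

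Fatty acids are lengthened on the endoplasmic reticulum in a cycle whose first step, the condensation, is carried out by an ELOVL enzyme that sets which chains enter. Desaturases place double bonds, and the FADS and ELOVL enzymes alternate to make the long polyunsaturated fatty acids of liver phospholipids from dietary precursors. ELOVL6 lengthens palmitate made by fatty acid synthase, ELOVL1 and ELOVL3 lengthen saturated and monounsaturated chains further, ELOVL5 and ELOVL2 lengthen polyunsaturated chains of medium and greater length in turn, FADS2 makes the first and FADS1 a later desaturation of that route, and SCD enzymes make monounsaturated fatty acids. In liver several of these genes are known targets of the sterol regulatory element binding protein SREBP-1c and of nuclear receptors. Elovl3 is known for higher levels in males and for a daily rhythm.

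Levels are CPM (normalised read counts, scaled by library size and TMM factors), given per mouse or as mean ± SD with n = 6, and changes are log2 fold changes ± SE from edgeR's quasi-likelihood test. A change was called at a Benjamini-Hochberg adjusted p under 0.05 over all genes tested, 13733 for acute and 13099 for chronic libraries. Depth was 18674151 to 20464521 gene counts per acute library and 15381724 to 19581723 per chronic library. The lowest count of any member in any library was 24, for Fads3. Fkbp5, a glucocorticoid-induced chaperone gene, was higher with CORT than with vehicle by 1.26 ± 0.24 in acute mice (adjusted p = 0.00595) and by 2.89 ± 0.40 in chronic mice (adjusted p = 0.000108). Cyp2c55, a cytochrome gene given as the check on ENZA, was higher with ENZA than with vehicle by 2.55 ± 0.28 (adjusted p = 1.21e-05) in the acute arm. Acute mice L19A (vehicle) and L36A (CORT+ENZA) and chronic mice 11 (vehicle) and 18 (CORT+ENZA) stood apart from the other libraries of their arm. Without both of a pair, calls changed for Scd2 and Elovl6 in the chronic arm, as given there. The labels give each library as its own mouse, and in bulk liver RNA fewer cells of a type and less RNA per cell cannot be told apart.

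Scaled to exon length, the polyunsaturated route and Elovl3 had the highest levels of the 9 and Scd2 and Fads3 the lowest. In chronic vehicle mice Elovl5 had 288 ± 101 RPKM (CPM per kb of exon, SD, n = 6), Fads2 268 ± 75.8, Elovl3 185 ± 48.2, Elovl2 176 ± 23.4, Fads1 122 ± 14.2, Elovl6 50.05 ± 37.3 and Elovl1 14.3 ± 1.74. The lowest of the 9 were Scd2 with 1.91 ± 1.59 RPKM and Fads3 with 0.632 ± 0.287 RPKM. Of the neighbours in this order, Elovl5 and Fads2, Elovl3 and Elovl2, Elovl6 and Elovl1, and Scd2 and Fads3 lie within 1 SD (that of the more variable gene) of each other. In acute vehicle mice the polyunsaturated route also led, with Fads2 at 197 ± 46.4, Elovl2 at 119 ± 23.6, Fads1 at 102 ± 16.2 and Elovl5 at 95.9 ± 25.4 RPKM, followed by Elovl3 at 47.7 ± 16.6, Elovl1 at 22.9 ± 2.23 and Elovl6 at 19.2 ± 7.07 RPKM. Scd2 (0.926 ± 0.287) and Fads3 (0.893 ± 0.368) again came last and did not differ from each other beyond their spread.

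**Figure D1:**
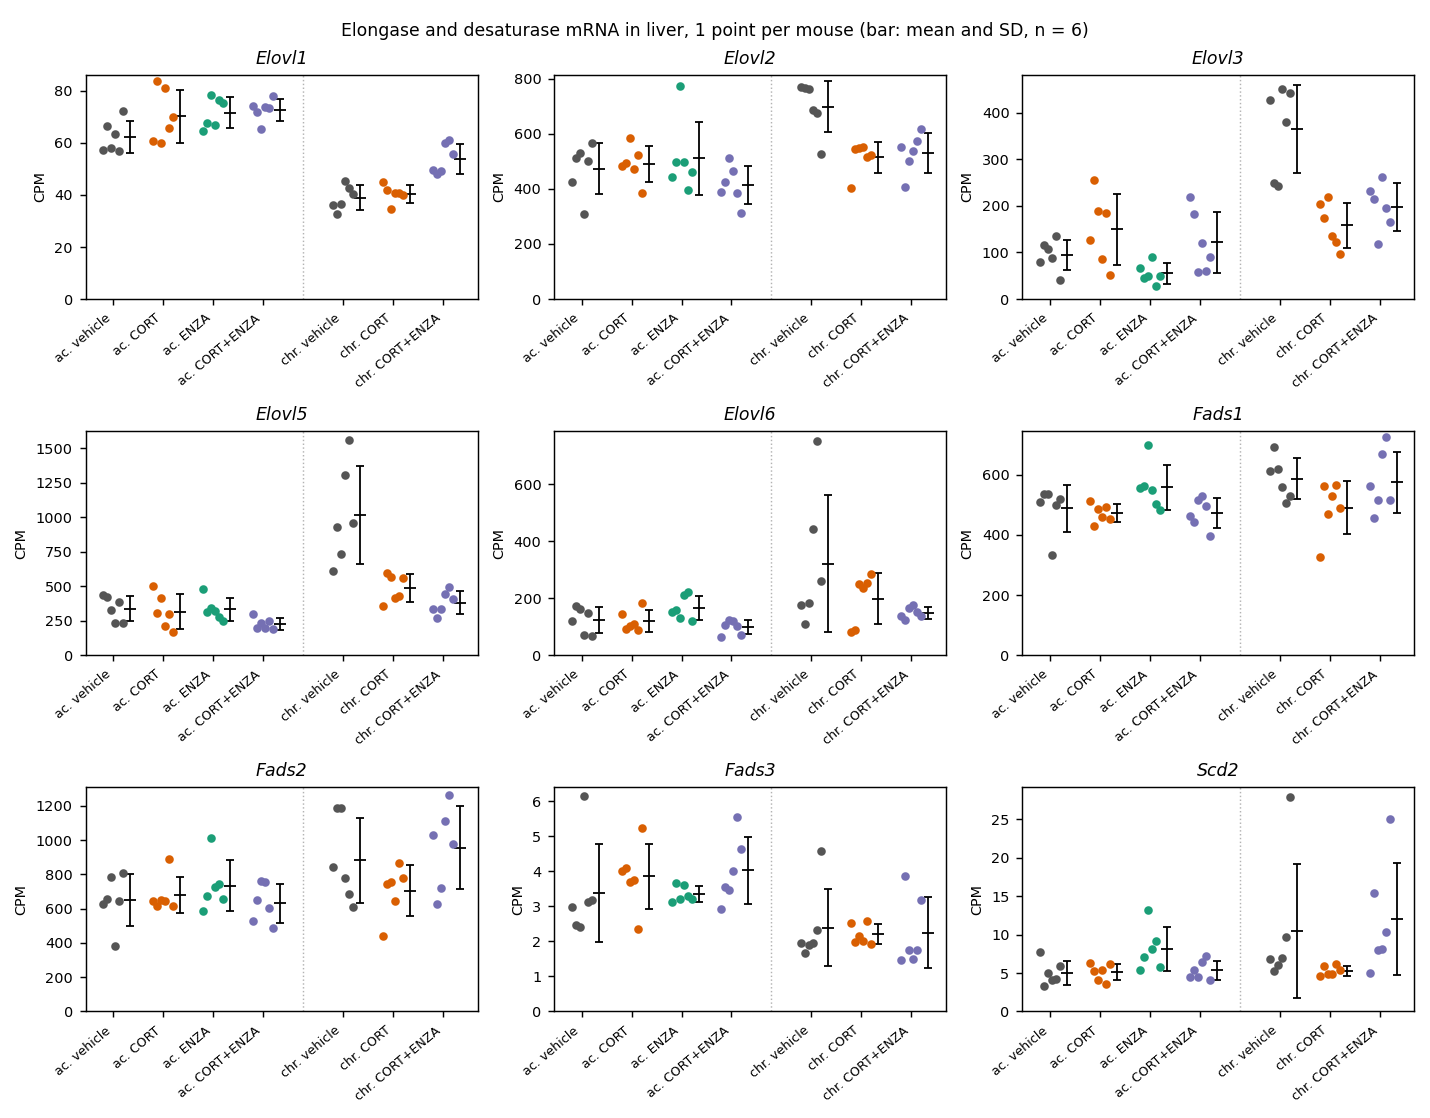
CPM of each member (y axis, from 0) in every mouse of the 4 acute (ac.) and 3 chronic (chr.) groups, 1 point per mouse, with the mean and SD of 6 mice beside the points. In the chronic arm the CORT mice lie below all vehicle mice for Elovl3 and Elovl5, the CORT+ENZA mice lie above all others for Elovl1, and Scd2 has single high mice at 27.9 CPM (vehicle) and 25.0 CPM (CORT+ENZA).

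The members sit on 5 chromosomes (GRCm38, GENCODE M21, all protein-coding). Fads3 (chr19:10041569-10060110, + strand), Fads2 (chr19:10062765-10101746, - strand) and Fads1 (chr19:10182888-10196877, + strand) form a cluster of 155 kb, and Scd2 (chr19:44293674-44306864) and Elovl3 (chr19:46131897-46135694) lie further along the same chromosome, both on the + strand. Elovl1 is at chr4:118428093-118432953 (+), Elovl2 at chr13:41182381-41220405 (-), Elovl5 at chr9:77917364-77984519 (+) and Elovl6 at chr3:129532355-129638495 (+). Of the 50-base stretches of the longest transcript, 4.01% of Scd2 also occur in another gene, mainly the sister genes Scd1, Scd3 and Scd4, and 4.4% of Elovl6, against at most 0.161% in the other 7. The sources used here do not state how reads in overlapping genes were counted.

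The promoters of Elovl5, Elovl2 and Elovl1, from RefSeq (GRCm38.p6), are shown because Elovl5 and Elovl2 fell with chronic CORT while Elovl1 rose when ENZA was added to it. Each runs from 250 bases before to 50 bases after the annotated start, on the strand of the gene, and capitals mark a match to one of 4 motifs searched on both strands: the steroid receptor half-site AGAACA, the sterol element TCACNCCAC, the E-box CACGTG and the CCAAT box.
Elovl5 (chr9:77917115-77917414, +): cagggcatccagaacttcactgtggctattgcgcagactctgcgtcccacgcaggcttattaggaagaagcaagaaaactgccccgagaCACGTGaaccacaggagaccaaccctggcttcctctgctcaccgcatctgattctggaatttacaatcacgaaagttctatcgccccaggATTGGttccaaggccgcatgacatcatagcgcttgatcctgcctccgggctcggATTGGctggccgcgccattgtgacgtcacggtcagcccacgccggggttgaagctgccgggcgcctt
Elovl2 (chr13:41220354-41220653, -): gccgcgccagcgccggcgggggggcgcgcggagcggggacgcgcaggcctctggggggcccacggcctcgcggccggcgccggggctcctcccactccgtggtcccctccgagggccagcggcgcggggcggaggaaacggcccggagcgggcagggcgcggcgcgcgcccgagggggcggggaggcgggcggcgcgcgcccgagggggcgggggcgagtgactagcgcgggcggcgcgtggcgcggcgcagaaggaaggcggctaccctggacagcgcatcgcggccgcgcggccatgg
Elovl1 (chr4:118427843-118428142, +): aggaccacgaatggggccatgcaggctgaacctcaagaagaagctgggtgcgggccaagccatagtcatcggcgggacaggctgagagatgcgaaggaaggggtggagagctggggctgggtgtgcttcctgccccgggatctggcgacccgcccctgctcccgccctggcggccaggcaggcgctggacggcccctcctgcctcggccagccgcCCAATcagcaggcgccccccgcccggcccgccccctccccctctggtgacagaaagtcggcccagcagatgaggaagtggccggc
Counted from the start, the Elovl5 window holds an E-box at position -161 and CCAAT boxes, read on the opposite strand as ATTGG, at -71 and -17. The Elovl1 window holds a CCAAT box at -35, and the Elovl2 window holds none of the 4 motifs and is 84.7% G and C. Elovl1 and Elovl2 each had another window, not printed, that holds none of the 4 motifs. For Elovl3, which also fell with chronic CORT, no window was available. The table had 8 windows for 6 of the 9 members, of which 0 held AGAACA or TCACNCCAC, 1 an E-box and 3 a CCAAT box, against 19%, 1.24%, 7.15% and 37.4% of all 32851 windows of this length. A match is a description of letters, not a site of binding.

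With chronic CORT against vehicle, the elongases Elovl3, Elovl5 and Elovl2 fell, 3 of 9 members, where 18.3% of all genes tested were called, and 0 of 9 rose. The median of the 9 log2 fold changes was -0.44, against -0.01 over all genes tested. Some markers of other cell types were also called in this comparison, to be read beside the same 18.3% of all genes. All 4 B cell markers were lower, with a sum of 0.0524 to 1.32 CPM with CORT against 2.83 to 7.50 CPM with vehicle. Of 6 stellate cell markers 2 were lower (sum 212 to 307 against 234 to 355 CPM), and of 6 Kupffer cell markers 1 was lower (sum 69.5 to 125 against 72.6 to 257 CPM). Of the 5 hepatocyte markers 0 were called. The same held for 5 sinusoidal endothelial, 5 cholangiocyte, 3 tested neutrophil and 3 erythroid markers, with 0 called in each list. The part of these cell types in the members' falls was not tested.

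Of the polyunsaturated route, Elovl5, which lengthens the products of FADS2, had 612 CPM in the lowest, 944 in the median and 1556 in the highest chronic vehicle mouse, and 355, 496 and 593 CPM with CORT. All 6 CORT mice lay below all 6 vehicle mice. The means were 487 ± 99.7 against 1016 ± 355 CPM, and Elovl5 fell by 1.06 ± 0.21 on the log2 scale (2.09-fold, edgeR quasi-likelihood adjusted p = 0.00158). Elovl2, which carries out the last elongations toward docosahexaenoic acid, had a lowest, median and highest value of 528, 724 and 768 CPM with vehicle and 403, 534 and 551 CPM with CORT. The groups overlapped through vehicle mouse 15, the lowest of its group, and 6 of 6 CORT mice lay below the vehicle median. Elovl2 fell by 0.44 ± 0.11 (1.36-fold, adjusted p = 0.00908). Fads1 had 507, 587 and 693 CPM with vehicle and 328, 509 and 566 CPM with CORT, a difference of -0.26 ± 0.13 that did not pass the test (adjusted p = 0.188). Fads2 had 609, 811 and 1189 CPM with vehicle and 441, 752 and 866 CPM with CORT (-0.32 ± 0.20, adjusted p = 0.278). For both desaturases the lowest value was that of CORT mouse 1, and the groups overlapped.

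Of the elongases of saturated and monounsaturated chains, Elovl3 had 243 CPM in the lowest, 403 in the median and 451 in the highest vehicle mouse, and 97.2, 155 and 220.02 CPM with CORT. The groups did not overlap. Elovl3 fell by 1.20 ± 0.22 (159 ± 48.3 against 365 ± 95.1 CPM, 2.30-fold, adjusted p = 0.00117). Elovl6, the elongase that follows fatty acid synthase, had 111, 223 and 753 CPM with vehicle and 82.9, 242 and 284 CPM with CORT. The CORT mice split, with mice 1 and 2 at 82.9 and 88.2 CPM and the other 4 between 235 and 284, and the vehicle spread covered all but 2 of them. The difference of -0.69 ± 0.40 did not pass the test (adjusted p = 0.253). Elovl1 had 32.5 to 45.5 CPM with vehicle and 34.6 to 44.9 CPM with CORT, and its difference was smaller than its SE. Scd2 and Fads3, the 2 members of low level, are described with the cell type markers below.

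**Figure D2:**
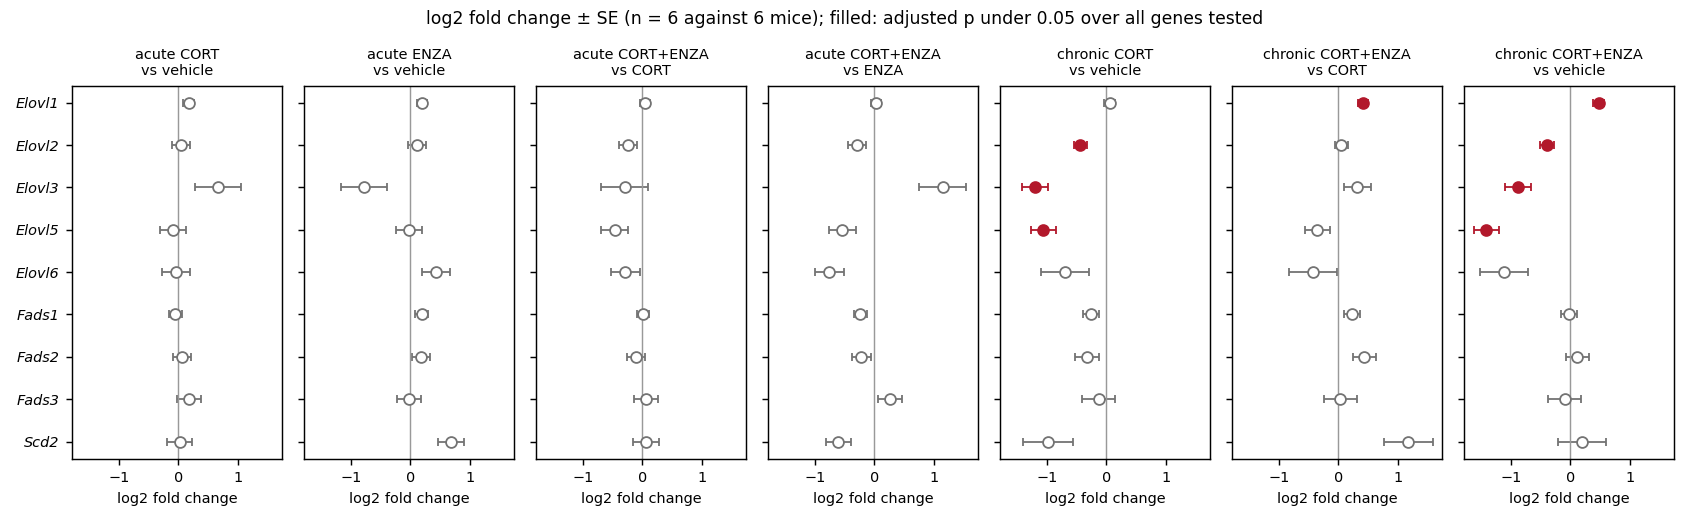
Log2 fold change (x axis) with its SE for the 9 members in 7 comparisons of 6 against 6 mice; filled points have an adjusted p under 0.05 over all genes tested. None of the acute points is filled, and in the chronic arm Elovl2, Elovl3 and Elovl5 lie left of 0 in both comparisons with vehicle while Elovl1 lies right of 0 in both comparisons of CORT+ENZA.

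The chronic vehicle mice did not form 1 group by their clock genes. Dbp, an output gene of the circadian clock, had 70.3, 135 and 142 CPM in vehicle mice 10, 11 and 12 and 5.61, 6.34 and 1.76 CPM in mice 13, 14 and 15, and Nr1d1, a clock repressor, had 207 to 216 against 32.4 to 65.2 CPM. Of the treated mice, CORT mouse 1 (7.6 CPM) and CORT+ENZA mouse 18 (8.49 CPM) also had Dbp under 10 CPM, and the other 10 had 38.4 to 110 CPM. The labels do not give a time of collection or a batch, and chronic numbers run in sets of 3 mice of 1 group, so set and clock state cannot be separated within the vehicle group. Elovl5 stood at 612, 929 and 736 CPM in vehicle mice 10 to 12 and at 1305, 1556 and 958 CPM in mice 13 to 15. Elovl6 was likewise higher in the second set, with 178, 111 and 185 against 442, 753 and 262 CPM. Elovl3 had 426, 250.1 and 243 against 451, 379 and 441 CPM, while Elovl2 was higher in the first set, with 768, 766 and 762 against 686, 676 and 528 CPM.

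The calls were fitted again without each set, as alternatives chosen after seeing the data. Elovl3 fell with CORT against either set, with -0.95 (adjusted p = 0.0322) without mice 13 to 15 and -1.40 (adjusted p = 0.00114) without mice 10 to 12. Elovl5 also fell against either, with -0.64 (adjusted p = 0.043) and -1.37 (adjusted p = 0.000203). When all 5 mice with low Dbp (1, 13, 14, 15 and 18) were left out, the Elovl5 difference was -0.56 and did not pass the test (adjusted p = 0.0635), while Elovl3 remained called (-1.03, adjusted p = 0.0316). Elovl2 fell by 0.57 without mice 13 to 15 (adjusted p = 0.00597), and its difference without mice 10 to 12 was -0.27 (adjusted p = 0.157). For Elovl6 the sign depended on the set: the CORT difference was 0.33 (adjusted p = 0.585) against mice 10 to 12 alone, and -1.27, which passed the test (adjusted p = 0.0288), against mice 13 to 15 alone. The part of collection time or of a batch in these values was not tested.

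**Figure D3:**
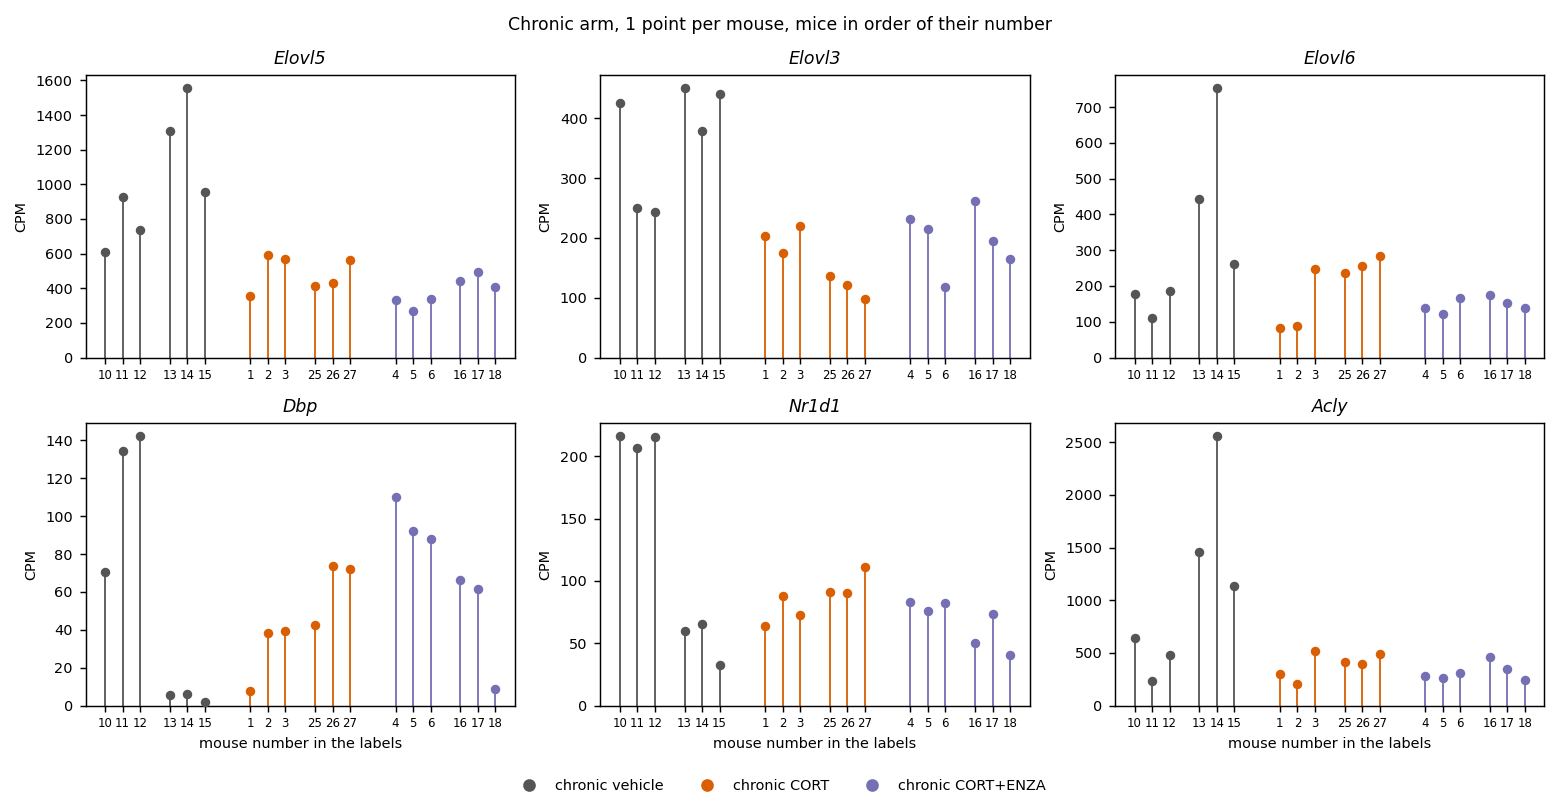
CPM (y axis, from 0) of Elovl5, Elovl3, Elovl6, the clock genes Dbp and Nr1d1 and the lipogenic gene Acly in each of the 18 chronic mice, placed by group and by mouse number (x axis). Vehicle mice 13 to 15 have Dbp of 1.76 to 6.34 CPM and the highest Elovl5 values, and Elovl6 reaches 753 CPM in mouse 14.

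Adding ENZA to chronic CORT was followed by a rise of Elovl1 alone among the 9 members (1 of 9 called, against 11.8% of all genes tested). Elovl1, which extends saturated chains to the lengths used in sphingolipids, had 34.6 CPM in the lowest, 40.8 in the median and 44.9 in the highest CORT mouse, and 48.1, 52.6 and 61.2 CPM with CORT+ENZA. The groups did not overlap. Elovl1 rose by 0.42 ± 0.09 (1.33-fold, 54.0 ± 5.78 against 40.4 ± 3.37 CPM, edgeR quasi-likelihood adjusted p = 0.00386).

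None of the members that had fallen with CORT was called back up. Elovl3 had 118, 205 and 261 CPM in the lowest, median and highest CORT+ENZA mouse, a difference from CORT of 0.32 ± 0.22 (adjusted p = 0.391) with overlapping groups. Elovl5 had 268, 373 and 495 CPM, lower than the CORT median in 6 of 6 mice (-0.35 ± 0.20, adjusted p = 0.286). Elovl2 had 407, 544 and 616 CPM, and its difference from CORT was smaller than its SE.

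The desaturases of the polyunsaturated route had higher medians with CORT+ENZA than with CORT without passing the test. Fads2 had 626, 1002 and 1266 CPM, above the highest CORT mouse in 4 of 6 mice (0.44 ± 0.20, adjusted p = 0.165). Fads1 had 456, 540.1 and 727 CPM (0.23 ± 0.13, adjusted p = 0.288). Elovl6 had 122, 145 and 175 CPM, a narrower spread than in the other chronic groups (-0.42 ± 0.40, adjusted p = 0.555).

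The comparison of chronic CORT+ENZA with vehicle shares the vehicle mice with the CORT comparison and the CORT+ENZA mice with the one above, so its values are given beside theirs and not as further support. It called 1 member higher and 3 lower, against 18.6% of all genes tested. Elovl1 was higher than vehicle by 0.47 ± 0.09 (1.39-fold, adjusted p = 0.000794), with 6 of 6 mice above the highest vehicle mouse. Elovl5 was lower, at -1.42 ± 0.21 (2.67-fold, 381 ± 82.9 against 1016 ± 355 CPM, adjusted p = 8.35e-05), with no overlap. Elovl3 was lower, at -0.88 ± 0.22 (1.85-fold, adjusted p = 0.00888), with 5 of 6 mice below the lowest vehicle mouse, and Elovl2 at -0.39 ± 0.11 (1.31-fold, adjusted p = 0.0166), with 2 of 6. Without vehicle mice 13 to 15 the Elovl3 difference was -0.63 (adjusted p = 0.151), without the 5 mice of low Dbp it was -0.58 (adjusted p = 0.207), and without mice 10 to 12 the Elovl2 difference was -0.23 (adjusted p = 0.241). Elovl6 had a difference of -1.12 ± 0.41 that missed the threshold (adjusted p = 0.0657), passed it without vehicle mouse 11 (-1.29, adjusted p = 0.026), without mice 11 and 18 (-1.27, adjusted p = 0.0444) and without mice 10 to 12 (-1.70, adjusted p = 0.00519), and was -0.09 (adjusted p = 0.909) without mice 13 to 15.

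In the main acute fit 0 of 9 members were called in any of the 6 comparisons by edgeR's quasi-likelihood test. This fit had no term for mouse numbers. All genes tested were called at 1.62% for CORT against vehicle, 1.31% for ENZA against vehicle, 0.175% for CORT+ENZA against CORT, 1.81% for CORT+ENZA against ENZA and 2.47% for CORT+ENZA against vehicle. For the interaction (the CORT effect with ENZA minus that without) 0% were called, although 501 of 13733 genes had an unadjusted p under 0.05. These comparisons share groups, and every pair of acute groups overlapped for every member.

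Elovl6 had the lowest, median and highest values of 66.9, 134 and 172 CPM with acute vehicle, 88.1, 107 and 185 with CORT, 121, 155 and 223 with ENZA, and 65.3, 104 and 123 with CORT+ENZA. The CORT+ENZA mice were below the lowest ENZA mouse in 5 of 6 cases. The difference between them was -0.76 ± 0.24 and missed the threshold (adjusted p = 0.119), and DESeq2 called it (adjusted p = 0.0395). Scd2 had 3.38, 4.61 and 7.71 CPM with vehicle, 3.61, 5.32 and 6.26 with CORT, 5.39, 7.61 and 13.2 with ENZA, and 4.14, 4.96 and 7.21 with CORT+ENZA. With ENZA 6 of 6 mice lay above the vehicle median (0.68 ± 0.21, adjusted p = 0.117 by edgeR and 0.0486 by DESeq2). Without ENZA mouse L17A, at 13.2 CPM, the Scd2 difference was 0.49. The sum of 6 Kupffer cell markers had a median of 137 and a highest value of 428 CPM with ENZA. With vehicle these were 148 and 172 CPM, and the part of these cells was not tested. Elovl6 and Scd2 also had the largest interaction values, -0.72 ± 0.34 and -0.63 ± 0.30, both with an adjusted p of 0.994.

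Elovl3 varied widely between acute mice. It had 40.9, 97.4 and 135 CPM with vehicle, 51.5, 156 and 257 with CORT, 27.6, 49.5 and 91.3 with ENZA, and 57.7, 105 and 219 with CORT+ENZA. The difference of CORT+ENZA from ENZA was 1.15 ± 0.40 (adjusted p = 0.152), that of ENZA from vehicle -0.78 ± 0.39 (adjusted p = 0.366) and that of CORT from vehicle 0.67 ± 0.39 (adjusted p = 0.462). Elovl5 had 231, 354 and 433 CPM with vehicle, 169.7, 300.2 and 500.4 with CORT, 251, 319 and 481 with ENZA, and 188, 218 and 299 with CORT+ENZA. All 6 CORT+ENZA mice lay below the median of each other acute group, with differences of -0.47 ± 0.22 from CORT (adjusted p = 0.953), -0.54 ± 0.22 from ENZA (adjusted p = 0.233) and -0.56 ± 0.22 from vehicle (adjusted p = 0.189). When the fit had a term for runs of neighbouring mouse numbers, the differences from ENZA and from vehicle passed the test (adjusted p = 0.0322 and 0.0237). The highest Elovl5 mouse of each acute group was in the first run (L1A, L2A, L5A and L6A). The lowest of each was in the last (L31A, L32A, L35A and L36A). What these runs stand for is not given in the labels.

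None of the other members' acute differences passed the test. The largest between groups was that of Elovl2 for CORT+ENZA from ENZA (-0.30 ± 0.15, edgeR adjusted p = 0.357). Fads1 had -0.23 ± 0.10 there (adjusted p = 0.278). Elovl1 had 57.0 to 72.1 CPM with vehicle, 59.9 to 83.7 with CORT, 64.4 to 78.6 with ENZA and 65.3 to 77.9 with CORT+ENZA. Its differences from vehicle were 0.17 ± 0.08, 0.20 ± 0.08 and 0.22 ± 0.08 in that order of treatments (adjusted p = 0.365, 0.273 and 0.174). Elovl2 ranged over 308 to 772 CPM in the 24 acute mice, Fads1 over 333 to 698 and Fads2 over 379 to 1014, with both ends of each range set by mouse L19A (vehicle, low) and mouse L17A (ENZA, high). Of the 99 fold changes of members computed over both arms, 36 were smaller than their own SE, and these are given no direction.

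The effects of the arms were compared as a difference of fold changes in a joint fit of all 42 libraries, which cannot separate duration from kit or table. For CORT, 1 of 9 members was called, against 6.17% of 14138 genes. Elovl3 had a CORT effect that was more negative in the chronic than in the acute arm by -1.83 ± 0.48 (adjusted p = 0.0166). The value was -1.59 without chronic mice 13 to 15 (adjusted p = 0.0868) and -1.67 without the 5 mice of low Dbp (adjusted p = 0.0909), and neither passed the test. Elovl5 differed by -0.93 ± 0.31 and missed the threshold (adjusted p = 0.0645). It passed when acute CORT mouse L20A (adjusted p = 0.0417) or L32A (adjusted p = 0.0274) or chronic vehicle mouse 10 (adjusted p = 0.0394) or 12 (adjusted p = 0.0472) was left out. Other omissions made it smaller, with -0.76 without acute CORT mouse L2A. Over all alternatives, by edgeR or DESeq2, the Elovl5 value ran from -1.25 to -0.45 and its adjusted p from 0.0123 to 0.519. For Elovl2 the difference was -0.46 ± 0.19 (adjusted p = 0.162). For the effect of ENZA added to CORT, 0 of 9 members were called, against 1.27% of genes. Elovl1, called in the chronic arm alone, had a difference of 0.34 ± 0.12 between arms (adjusted p = 0.176), so its effect was not shown to differ between them.

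Scd2, an isoform of stearoyl-CoA desaturase that is minor in adult liver beside Scd1, and Fads3, whose enzyme acts on sphingoid bases, had low levels and a few high mice in the chronic arm. Scd2 had 5.31, 6.91 and 27.9 CPM in the lowest, median and highest vehicle mouse, 4.66, 5.17 and 6.196 with CORT, and 5.01, 9.23 and 25.0 with CORT+ENZA. The CORT mice were the most uniform, and 5 of 6 CORT+ENZA mice lay above the highest of them. The difference of CORT+ENZA from CORT was 1.17 ± 0.41 and missed the threshold (adjusted p = 0.0749). It passed in a fit of the compared groups alone (adjusted p = 0.0322), without vehicle mouse 15 (adjusted p = 0.0148) and without CORT+ENZA mouse 4 (adjusted p = 0.0478). Without CORT+ENZA mouse 18, at 25.0 CPM, the difference was 0.81. Over all alternatives, by edgeR or DESeq2, it ran from 0.78 to 1.33 and its adjusted p from 0.0148 to 0.202. For CORT against vehicle the Scd2 difference was -0.98 ± 0.42 (adjusted p = 0.113). That value was -1.11 without mice 11 and 18 (adjusted p = 0.043), -1.46 without mice 10 to 12 (adjusted p = 0.0364) and -0.42 without mice 5, 15 and 26 (adjusted p = 0.431). Fads3 had 1.66, 1.96 and 4.57 CPM with vehicle, 1.92, 2.09 and 2.60 with CORT, and 1.46, 1.75 and 3.85 with CORT+ENZA, and neither CORT nor the addition of ENZA gave a difference larger than its SE.

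The high mice differed in markers of other cell types. The sum of 6 adipocyte markers (Adipoq, Lep, Retn, Cfd, Adig and Plin1) was 107 CPM in vehicle mouse 15, 42.01 in CORT+ENZA mouse 5, 5.98 in CORT mouse 26 and at most 2.39 CPM in the other 15 chronic mice. Across groups it ranged from 0.135 to 107 CPM with vehicle, 0 to 5.98 with CORT and 0.0512 to 42.01 with CORT+ENZA, and 0 of the 6 markers had enough counts to be tested. Adipoq itself had 16.4 CPM in mouse 15 and 13.6 CPM in mouse 5, and was at 0 in mouse 18. Scd2 was highest in mouse 15 (27.9 CPM), in CORT+ENZA mouse 18 (25.0 CPM) and in mouse 5 (15.5 CPM), and Fads3 was highest in the same 3 mice (4.57, 3.18 and 3.85 CPM). Mouse 18 had an adipocyte sum of 0.11 CPM and instead the highest sum of 6 Kupffer cell markers, 471 CPM against 69.5 to 257 CPM in the other chronic mice. Without mice 5, 15 and 26, in an edgeR fit that kept mouse 18, the Scd2 difference of CORT+ENZA from CORT was 1.13 (adjusted p = 0.048). Elovl1, Elovl2, Elovl3 and Elovl5 kept their chronic calls without those 3 mice. The part of these cell types in the Scd2 and Fads3 values was not tested.

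**Figure D4:**
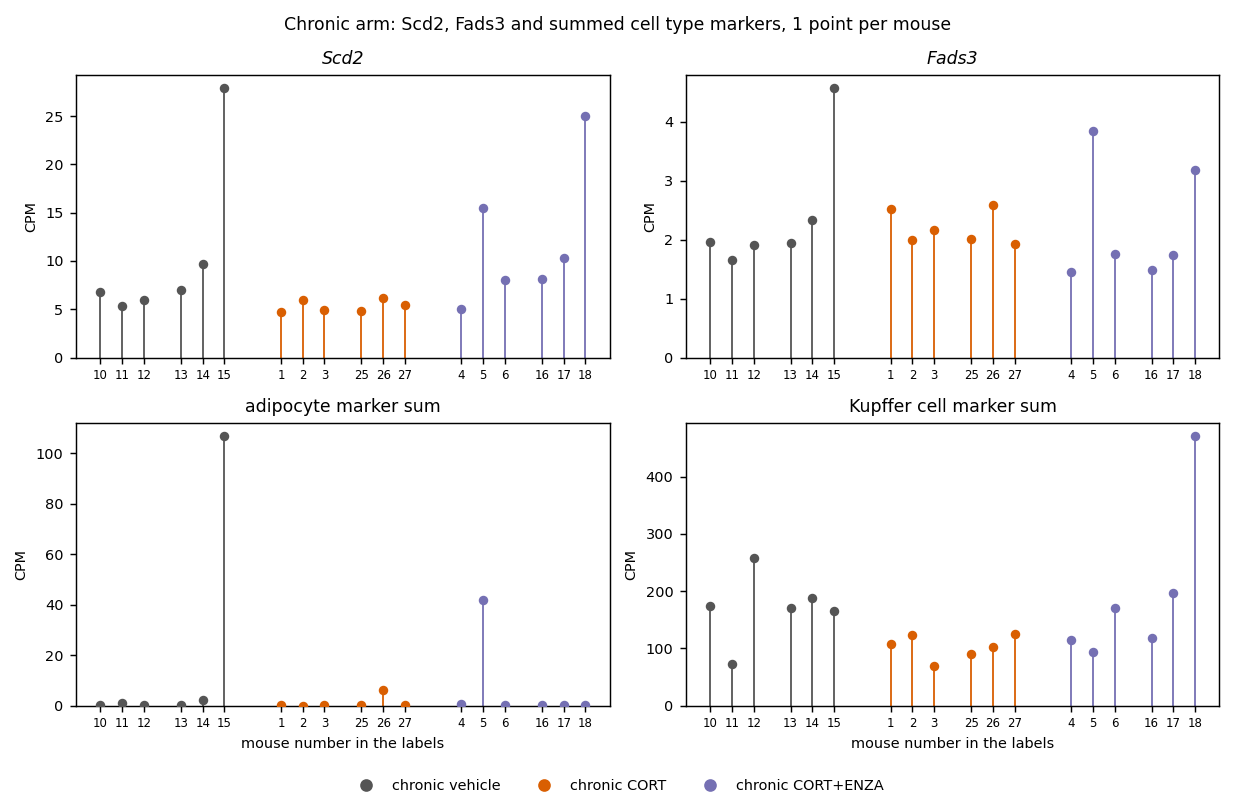
CPM (y axis, from 0) of Scd2, Fads3 and the summed adipocyte and Kupffer cell markers in each of the 18 chronic mice, placed by group and mouse number (x axis). Mice 15 and 5 are high for Scd2, Fads3 and the adipocyte sum, and mouse 18 is high for Scd2, Fads3 and the Kupffer cell sum (471 CPM).

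Hepatocyte markers were high in all mice, and the sum of 5 of them (Alb, Apoa1, Ttr, Cyp2e1 and Cps1) was 61912 to 79512 CPM with chronic CORT+ENZA, 92041 to 124542 with CORT and 102579 to 127138 with vehicle. With ENZA added to CORT, where 11.8% of all genes tested were called, 2 of the 5 were lower. Of the Kupffer cell markers 1 of 6 was higher, and of the stellate cell markers 1 of 6. Of 5 sinusoidal endothelial, 5 cholangiocyte, 4 B cell, 3 tested neutrophil and 3 erythroid markers, 0 were called in each list. The part of these shifts in the rise of Elovl1 was not tested.

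Elovl2, Fads1 and Fads2 varied together between mice of a group. With each value taken as the deviation from its group mean of log2 CPM, Fads1 and Fads2, whose starts lie 81142 bp apart in opposite directions, had a Pearson r of 0.82 over the 24 acute and 0.85 over the 18 chronic mice. Elovl2 followed Fads2 (0.83 and 0.81) and Fads1 (0.84 and 0.69). In the acute arm ENZA mouse L17A had the highest Elovl2, Fads1 and Fads2 (772, 698 and 1014 CPM). Vehicle mouse L19A had the lowest (308, 333 and 379 CPM), and r was not computed without these mice. Fads3, only 2655 bp from Fads2 and of low level, had r of -0.61 and -0.59 to Fads2. Acute vehicle mouse L19A had the highest acute Fads3 (6.16 CPM) and the lowest acute Fads2 (379 CPM). Chronic mice 15 (vehicle) and 5 (CORT+ENZA) had the highest chronic Fads3 (4.57 and 3.85 CPM) and the lowest Fads2 of their groups (609 and 626 CPM). The r without these mice was not computed. Elovl5 and Elovl6 had r of 0.12 and 0.56. Not all pairs were alike in both arms: Elovl1 and Elovl5 had r of -0.56 and 0.48. Fads3 and Scd2 had r of 0.24 and 0.89, the highest chronic value of any pair of members. Chronic mice 15, 5 and 18 were the highest for both genes, and r was not computed without them. All genes of a mouse share its library and depth, and these values carry no test.

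The genes most like each member were ranked by the mean of the acute and chronic r over all mice, among 8624 genes of at least 5 CPM. Elovl6 was most like Acaca (0.84 acute, 0.93 chronic), Fasn (0.86 and 0.84) and Acly (0.81 and 0.90), the genes of the steps that make palmitate, its substrate. Elovl5 was most like Camk1d (0.89 and 0.88), Acsl5 (0.81 and 0.95), an acyl-CoA synthetase, and Slc44a1 (0.79 and 0.88). Elovl3 was nearest to Nelfa (0.76 and 0.78), Cela1 (0.70 and 0.70) and Car3 (0.57 and 0.80), and Elovl1 to Fyb2 (0.61 and 0.86), Cdhr5 (0.60 and 0.79) and Ankrd40 (0.67 and 0.69). Elovl2 and Fads1 shared Nono as nearest gene (0.73 and 0.84 for Elovl2, 0.90 and 0.58 for Fads1), followed by Itih2 (0.70 and 0.85) and Rdx (0.74 and 0.77) for Elovl2 and by Rnf13 (0.85 and 0.55) and Slc7a2 (0.73 and 0.67) for Fads1. Fads2 was nearest to Nadk (0.82 and 0.57), Slc7a2 (0.67 and 0.71) and Rnf138 (0.69 and 0.67). Fads3 was nearest to Gsn (0.71 and 0.72), Gpx3 (0.76 and 0.56) and Fabp4 (0.41 and 0.85), and Scd2 to Lims1 (0.68 and 0.63), Npc2 (0.60 and 0.67) and Abcg1 (0.60 and 0.66).

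**Figure D5:**
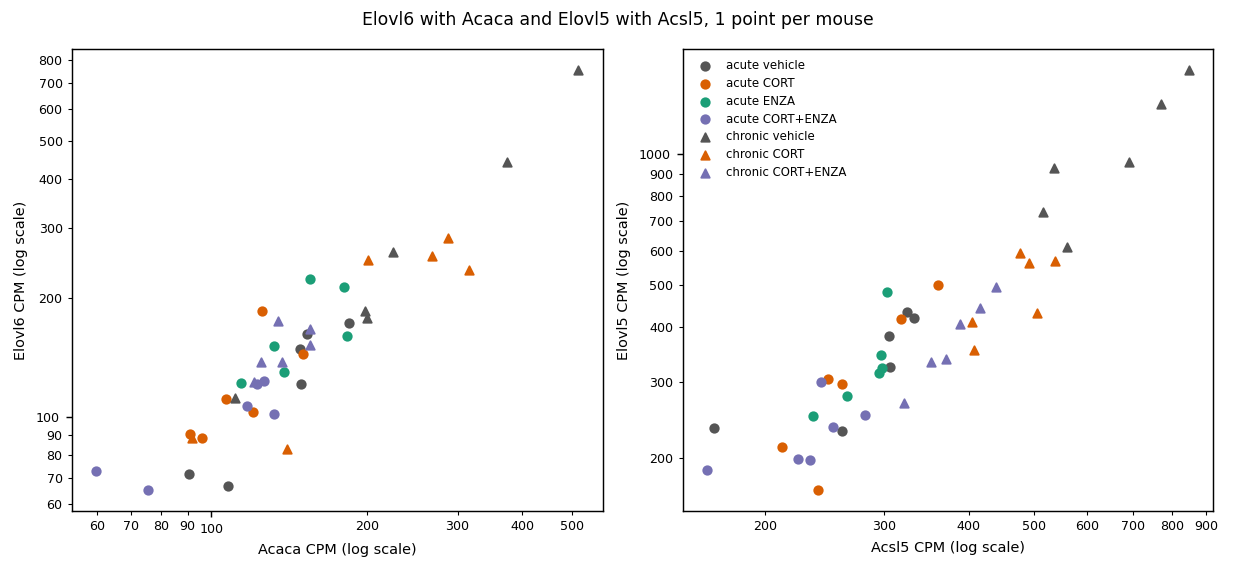
Elovl6 against Acaca (left) and Elovl5 against Acsl5 (right), CPM on log axes, 1 point per mouse, circles for the acute and triangles for the chronic arm, colours for treatment. Both pairs lie along 1 rising band across all 42 mice, with vehicle mice 13 and 14 of the chronic arm at the upper end.

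Genes around the members were counted in lists of the pathway, and no list was tested as a set. Of all genes tested, 18.3% were called with chronic CORT against vehicle and 11.8% with ENZA added to it. For chronic CORT+ENZA against vehicle the share was 18.6%. Of 8 partners of the elongation cycle (reductases, dehydratases and other elongases) 6 were tested, Elovl4 and Elovl7 having too few counts. Of these 6, 0 changed with chronic CORT or with ENZA added to it, and Hacd1, a dehydratase gene, was higher with CORT+ENZA than with vehicle (0.58 ± 0.17, adjusted p = 0.023). Of 8 tested other desaturase and electron supply genes, 1 was lower with chronic CORT, Cyb5r3 (-0.48 ± 0.11, adjusted p = 0.00527). With ENZA added 2 of the 8 were lower than with CORT, Cyb5r3 (-0.35 ± 0.11, adjusted p = 0.0465) and Scd1, the main stearoyl-CoA desaturase of liver, at 9596 against 22656 CPM (-1.24 ± 0.28, adjusted p = 0.00763). Scd2 and Scd1 thus had values of opposite sign in that comparison, and only that of Scd1 passed the test.

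Of 11 genes listed for fatty acid synthesis and the lipogenic steps around it, 4 were lower and 0 higher with chronic CORT. Of all genes tested 18.3% were called there. Of the 4, Acly and Acss2 supply acetyl-CoA, while Gpam starts glycerolipid assembly and Pnpla3 is a lipid droplet protein. The log2 fold change was -1.48 ± 0.42 for Acly (adjusted p = 0.0207), -0.96 ± 0.28 for Gpam (adjusted p = 0.0226), -2.02 ± 0.59 for Pnpla3 (adjusted p = 0.0252) and -1.33 ± 0.43 for Acss2 (adjusted p = 0.0382). In the vehicle mice Acly had 638, 231 and 475 CPM in numbers 10 to 12 and 1462, 2558 and 1133 CPM in numbers 13 to 15. These 4 calls were not checked without either set of vehicle mice. In the acute arm 2 of 11 were lower with CORT+ENZA than with ENZA, where 1.81% of all genes tested were called. They were Gpam (-0.64 ± 0.15, adjusted p = 0.0244) and Fasn (-1.18 ± 0.29, adjusted p = 0.0351). Elovl6 had its largest acute value in the same comparison.

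Among 9 genes of fatty acid activation and binding, 2 were lower and 1 higher with chronic CORT, where 18.3% of all genes tested were called. The lower ones were Acsl3 (-0.80 ± 0.18, adjusted p = 0.00429) and Acsl5 (-0.47 ± 0.12, adjusted p = 0.0113). Of 11 genes of peroxisomal chain shortening, which trims the longest polyunsaturated chains, 5 were higher and 0 lower when ENZA was added to chronic CORT. The share of all genes called there was 11.8%. Ehhadh (0.69 ± 0.15, adjusted p = 0.00648) and Abcd3 (0.49 ± 0.11, adjusted p = 0.00738) were among the 5. Of 10 acyl transfer genes tested, 2 were higher and 1 lower with chronic CORT, beside the same 18.3% of all genes. The lower one was Lpcat3, which places polyunsaturated chains in phospholipids (-0.32 ± 0.09, adjusted p = 0.0133).

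The next counts stand beside 18.3% of all genes called with chronic CORT and 11.8% with ENZA added to it. Among 19 regulators of these pathways 3 were higher and 4 lower with chronic CORT, including Scap, the SREBP escort (-0.72 ± 0.14, adjusted p = 0.00117). Of cholesterol synthesis genes, the SREBP-2 arm, 10 of 21 were lower and 1 higher with chronic CORT. When ENZA was added 18 were higher and 0 lower, among them Sqle (2.61 ± 0.34, adjusted p = 7.55e-05). Of 13 male-biased liver genes, the class to which Elovl3 is often counted, 1 was higher and 2 lower with chronic CORT. With ENZA added 2 were higher, Cyp4a12b (2.14 ± 0.24, adjusted p = 1.3e-05) and Cyp4a12a (1.62 ± 0.22, adjusted p = 9.45e-05).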

How the data were processed

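Liver RNA of 42 male mice, 6 in each of 7 groups, was measured by RNA-seq. The deposited tables hold raw counts per Ensembl gene for each library, 1 table per arm. Per the submitters' processing notes, FastQC, MultiQC, STAR 2.7.3a, HTSeq 0.12.4 and the mm10 build were used. For their roles, the strand setting and the annotation release, the sources used here give nothing. Lines that name no gene (21.6% to 28.4% of acute and 30.7% to 37.1% of chronic reads) were left out. Columns were matched to mice by name, with 0 unmatched. Of 55573 IDs, 55394 were matched to a symbol in GENCODE M21, as were all 9 members.

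Counts were tested in R 4.3.3 with edgeR 4.0.16 (limma 3.58.1), with TMM scaling, filterByExpr (minimum count 10, minimum total 15), robust quasi-likelihood fits of all libraries of an arm, and Benjamini-Hochberg adjustment over all genes tested, called at 0.05. Differences between arms came from 1 fit of all 42 libraries. The SE is the log2 fold change divided by the square root of its F value. The scripts were tested on simulated data. Alternatives were DESeq2 1.42.0 with its size factors, other scaling, filters and sample sets, number sets as a term, and each mouse left out in turn. Library pairs within groups differed by more than sampling noise. CPM and RPKM were computed from the counts and the summed exon length.

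The text names all 9 members, up to 4 genes with the smallest p of each pathway list in a comparison, 1 check gene per agent, and the 3 genes most like each member. Other genes named (Dbp, Nr1d1, Adipoq and Acly by mouse) were chosen after their values were seen. Members and lists were chosen with earlier results of these data known.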

Additional observations from a re-analysis of the deposited data

Results flagged for a closer look

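Among 63 groups of 6 mice (9 members in 7 groups), 9 held a mouse whose gap to its nearest neighbour exceeded Dixon's critical share of the range (0.05 level). About 3.15 would do so if the groups were independent and normally distributed. The same mice enter for every member, so they are not independent and the excess carries no test. In the ENZA group of the acute arm, mouse L17A was high for Elovl2 (772 CPM, others 394 to 498), Fads1 (698 CPM, others 483 to 563) and Fads2 (1014 CPM, others 587 to 743). In acute vehicle, mouse L19A was low for Fads1 (333 CPM, others 499 to 537) and high for Fads3 (6.16 CPM, others 2.42 to 3.18). The acute CORT mouse L26A was high for Fads2 (889 CPM, others 618 to 653). In the chronic arm, CORT mouse 1 was low for Elovl2 (403 CPM, others 515 to 551), and vehicle mouse 15 was high for Fads3 (4.57 CPM, others 1.66 to 2.33) and Scd2 (27.9 CPM, others 5.31 to 9.69). The CORT effect on Elovl3 differed between the arms by -1.83 (log2, chronic minus acute) in a test of the difference itself (edgeR quasi-likelihood, adjusted p = 0.0166).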

How the results depend on the processing

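Of 1972 recomputed values for the 63 member fold changes that exceeded their SE, 1934 kept direction and side of the threshold, 25 came to pass it, 7 ceased to and 6 turned sign. The cause was not tested in any case. Calls of Elovl1 held under every alternative run.

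The counts of members called changed as follows. DESeq2 called 1 member in acute ENZA against vehicle (Scd2) and 1 in acute CORT+ENZA against ENZA (Elovl6), where edgeR called 0, and 2 members each in chronic CORT+ENZA against CORT and in the chronic minus acute CORT effect, where edgeR called 1. It also called Elovl6 in chronic CORT+ENZA against vehicle (adjusted p = 0.0433). With number sets as a term, 1 member (Elovl5) was called in acute CORT+ENZA against ENZA and 1 against vehicle. In chronic CORT+ENZA against CORT, Scd2 made 2 members called with the compared groups alone, without mice 5, 15 and 26, without mice 13 to 15, and without the 5 mice of low Dbp. Leaving out 1 mouse gave 1 to 2 there and 1 to 2 in the chronic minus acute CORT effect. The latter count was 3 without chronic vehicle mice 10 to 12 (Elovl3, Elovl5 and Scd2), 0 without mice 13 to 15 and 0 without the 5 mice of low Dbp. Sign turned for Elovl6 in chronic CORT against vehicle (0.33 without mice 13 to 15, 0.50 without the 5) and in chronic minus acute CORT (0.39 and 0.56), and for Fads2 without mice 10 to 12 (0.048 in chronic CORT and 0.0084 in the difference between arms). Without mice 11 and 18, Scd2 passed in chronic CORT against vehicle (-1.11, adjusted p = 0.043) and Elovl6 in CORT+ENZA against vehicle (-1.27, adjusted p = 0.0444).

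Counts over all genes ranged over the alternatives from 96 to 432 (222 as reported) for acute CORT against vehicle, 77 to 392 (180) for ENZA, 14 to 59 (24) for CORT+ENZA against CORT, 118 to 461 (248) against ENZA and 203 to 584 (339) against vehicle. In the chronic arm they ranged from 1551 to 3394 (2401) for CORT, 977 to 2008 (1552) for CORT+ENZA against CORT and 1532 to 3382 (2434) against vehicle, and for the differences between arms from 509 to 1373 (873) and 129 to 332 (179). The groups share no replicate numbers in the labels, which give no pairing, and the main fits were unpaired. The acute sets of consecutive numbers, each with 1 mouse per group, entered only as the term above. Depth limits Fads3 most, with counts down to 24 per library.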
